A study of Mus musculus with 4 samples.

Results

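The 41 genes described here encode transcription factors of 6 families of developmental regulators outside the Hox clusters: 9 Pax, 6 Dlx, 6 Irx, 7 Lhx and 8 Nkx genes and 5 sine oculis homeobox genes (Six2 to Six6). They were taken as a named list, each was found once by its symbol among the 22367 protein-coding genes of chromosomes 1 to 19, X and Y in GENCODE release M1 on mm9, and the rule used no Wapal value, although the list was drawn up with earlier results of these data known. They lie on 13 autosomes. Whether a gene belongs to its family cannot be read from ChIP data and rests on the symbol.

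Wapal is the factor that releases the cohesin ring from chromatin. In the experiment, Flag- and biotin-tagged Wapal (FB Wapal) was recovered with its DNA by streptavidin from mouse embryonic stem cells (ESCs), and the DNA was sequenced. The ESCs were of the gelatin-adapted mouse line CJ9 and expressed the biotin ligase BirA, the controls included. There were 2 libraries from independently derived FB Wapal clones, 1 from cells with BirA and no tagged Wapal, and 1 input of sheared genomic DNA, which is labelled as coming from tagged cells. The tagged protein was made beside the cells' own Wapal, and each FB Wapal library stands for 1 clone. Both clones entered 1 deposited list of 8497 regions, so no clone-to-clone spread exists for any value given here and no test between clones or groups was made. The 174 regions that shared at least 1 bp with one of the 266 BirA regions were removed, and the 8323 left are called sites. Each site has a MACS score, which is the negative log10 of its p-value against input multiplied by 10, and the scores ran from 50.0 to 685. Read counts are not part of the lists, and the depth behind a site is therefore not known.

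Pax proteins carry a paired domain, some of them beside a homeodomain, and the other 5 families carry a homeodomain. With these domains the proteins bind DNA and set the identity of organs and cell types in the embryo. In ESCs many such genes are held silent by Polycomb complexes. Several of them stand in small clusters that arose by duplication, and their enhancers can lie far away in gene-poor DNA. Cohesin extrudes loops of chromatin and is halted where CTCF is bound, and the direction of the CTCF core motif decides from which side it is halted.

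Of the 41 members, 4 had a site within 10 kb of the transcription start site (TSS, the 5′ end of the gene record), a share of 9.76% against 9.13% of all protein-coding genes. Within 50 kb there were 17 members (41.5%) against 38.7% of all genes, so at both distances the members' share was near the background. Within 100 kb there were 33 members (80.5%) against 60.1% of all genes. Among sites with a score of at least 100 the shares within 100 kb were 31.7% of members and 27.8% of all genes, and the median distances 231 and 234 kb. With all sites, the difference came from the range between 50 and 100 kb, which held the nearest site of 16 members (39.0%) and of 21.3% of all genes. Between 100 and 200 kb there were 2 members (4.88%) against 19.3% of all genes. The median distance to the nearest site was 53.7 kb for members, with quartiles of 23.3 and 90.4 kb, and 72.5 kb for all genes. These are descriptions of 1 list: the members are not independent points, since 21 of them stand in 9 clusters and share sites.

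**Figure D1:**
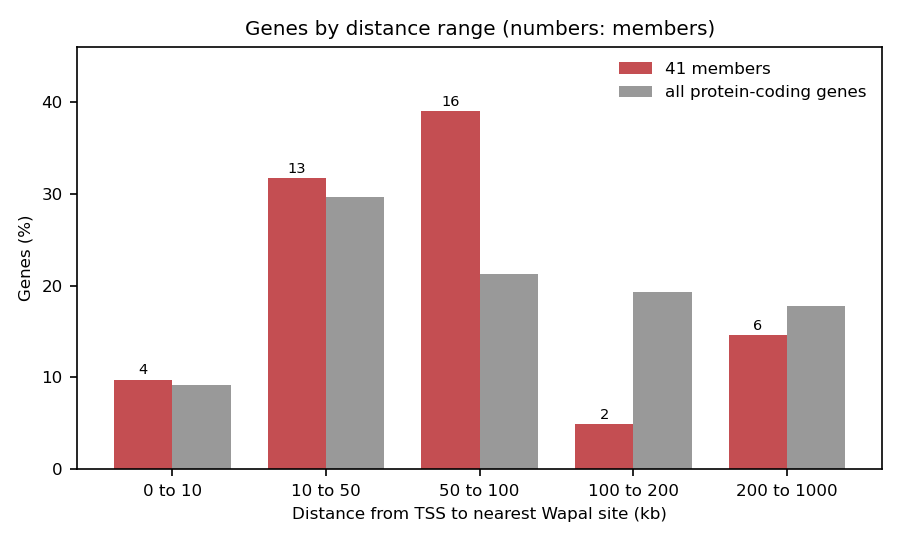
Share of genes (%, vertical axis) by distance from the TSS to the nearest Wapal site (kb, horizontal axis) for the 41 members (red, with the number of members above each bar) and for all protein-coding genes (grey). The bars are alike up to 50 kb, and the red bar is the taller one between 50 and 100 kb, at 39.0% against 21.3%.

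The members stood in gene-poor surroundings, with a median of 1 other protein-coding TSS within 100 kb against 3 for all genes. Among genes with 0 or 1 such neighbour, 17 of 24 members (70.8%) and 52.8% of all genes had a site within 100 kb. With 2 to 4 neighbours it was 14 of 14 members and 63.5% of all genes, and with 5 or more 2 of 3 members and 61.8% of all genes. The background itself rose to 61.5% on autosomes alone and to 62.5% without olfactory and vomeronasal receptor genes. Of the nearest sites, 17 lay upstream of the member, 21 downstream and 3 inside its gene record. Upstream sites were the nearest for 41.5% of members and for 51.0% of all genes.

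The 4 sites within 10 kb all lay upstream of the gene, at Dlx3, Dlx5, Nkx3-2 and Nkx2-1. Of all 2042 protein-coding genes with a site within 10 kb, the nearest was upstream for 55.4% and downstream or in the gene for 35.7%. For the rest the TSS lay inside the site. Below are the best matches to the CTCF core motif in the 4 sites near members, because they are the sites closest to any member. Each is read 5′ to 3′ on the strand of the match from mm9, with the 12 bases of the core in capitals.
Dlx3, chr11:94980004-94980033, + strand, 2 mismatches: tccggaaaaCCACGAGGTGGTgcgctggca
Dlx5, chr6:6835117-6835146, - strand, 2 mismatches: tcctggcggACACTGGGTGGCgctcgtggt
Nkx3-2, chr5:42159815-42159844, - strand, 2 mismatches: gaagagggcTCGCTAGGTGGCgctcgtcct
Nkx2-1, chr12:57642261-57642290, - strand, 0 mismatches: tattggtgaCCAGTAGAGGGCgccgcggat

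Only the site at Nkx2-1 among these 4 held the core with at most 1 mismatch on either strand. Over all 8323 sites 74.5% held it, against 10.0% of equally wide stretches placed 5 kb to either side. With 2 mismatches allowed 96.5% of all sites and 49.7% of those stretches held a match, so a match with 2 mismatches says little about a site. CTCF binding itself was not read here, and a site without a core match is not shown to lack CTCF.

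**Figure D2:**
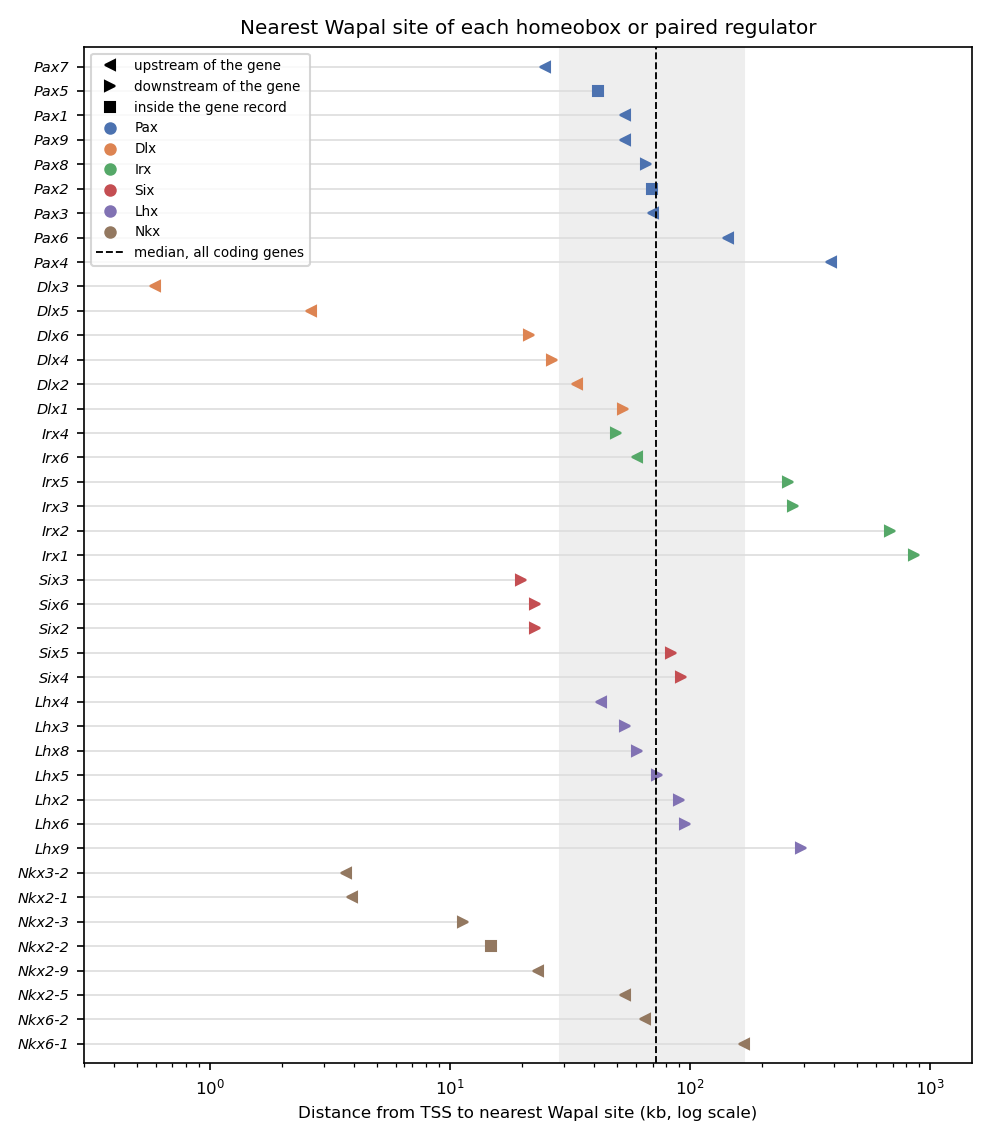
Distance from the TSS of each of the 41 members to the nearest Wapal site (kb, log scale), ordered within family. Triangles to the left mark sites upstream of the gene, triangles to the right sites downstream, and squares sites inside the gene record; the grey band runs between the quartiles of all protein-coding genes and the dashed line their median of 72.5 kb. The Dlx genes sit at 52.6 kb or nearer, and Irx1 and Irx2 are the farthest, at 857 and 681 kb.

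Dlx genes pattern the forebrain, the jaws and the limbs, and they stand in convergent pairs whose members face each other. All 6 had a site within 100 kb and 5 of 6 within 50 kb, against 60.1% and 38.7% of all genes, with a median distance of 24.1 kb. The partners of each pair had the same nearest site, so these values rest on 3 pairs. No site lay between the partners of any of the 3 pairs. Of all adjacent protein-coding pairs with TSSs up to 50 kb apart 9.48% had one, so 0 of 3 is near the background. Dlx3, which acts in skin, hair and placenta, had its site 590 bp upstream, at chr11:94979408-94980813 with a score of 144, and the same site was 26.8 kb from Dlx4. Dlx5, needed for jaw and limb skeleton, had its site 2.65 kb upstream, at chr6:6834740-6835511, 21.4 kb from its partner Dlx6. The score of 200 put that site at rank 447 of 8323. For Dlx1 and Dlx2, which direct forebrain interneurons to form, the nearest site was chr2:71418776-71419810 with a score of 81.3. It was 34.0 kb upstream of Dlx2 and 52.6 kb from Dlx1.

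On the other side of each Dlx pair the next site was farther away. Dlx5 and Dlx6 shared an interval of 605 kb without a site, of which 583 kb lay beyond Dlx6, and the site that ended it (chr6:6229452-6230185) had a score of 50.3. Dlx1 and Dlx2 shared an interval of 329 kb, and Dlx3 and Dlx4 one of 132 kb. Of the 4 sites within 100 kb of Dlx genes, 1 held the core motif with at most 1 mismatch, against 74.5% of all sites. That site, chr2:71435822-71437444, lay beyond the nearest site of Dlx2 and had a score of 112. Neither site that flanked Dlx1 and Dlx2 held a match even with 2 mismatches, which was the case for 3.51% of all sites.

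Nkx genes of the NK2, NK3 and NK6 groups specify organs such as thyroid, lung, heart, spleen and pancreas and the ventral neural tube. Of the 8 members, 5 had a site within 50 kb and 7 within 100 kb, against 38.7% and 60.1% of all genes. Their median distance was 19.1 kb. Nkx2-1, the regulator of thyroid and lung, had a site 3.92 kb upstream at chr12:57641814-57642650 with a score of 71.8. Nkx3-2, which acts in cartilage and spleen, had one 3.69 kb upstream at chr5:42159427-42160219, and its score of 57.7 was among the lower ones. Nkx2-3, which is needed for spleen and gut, had the highest-scoring site within 100 kb of any member, 11.4 kb downstream, with a score of 239 and rank 228 of 8323. It had 3 sites within 100 kb, and its interval of 92.6 kb between flanking sites was the shortest of the 41. The nearest sites of Nkx2-5, the cardiac regulator, and of Nkx6-2 were 53.7 and 65.1 kb away. Nkx6-1, needed in pancreatic beta cells and motor neurons, had none within 100 kb and its nearest one at 168 kb.

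The site of Nkx2-2, a ventral neural tube and islet regulator, lay at the 3′ end of its gene record (chr2:147003149-147005054) and had a score of 212, rank 346. It was 14.9 kb from the annotated 5′ end of the record and 6.94 kb from the nearest of the gene's 4 annotated transcript starts. Pax1, a sclerotome gene, starts 168 kb away and is transcribed in the opposite direction. Between their TSSs stood 3 sites, with scores of 118, 176 and 191, of which the nearest to Pax1 was 53.7 kb upstream of it. In all 4 sites the best core motif was on the - strand, so that they pointed the same way, from Pax1 toward Nkx2-2. These 4 windows are shown because they form the longest run of sites in a cluster of members, and each has 1 mismatch.
Site in Nkx2-2, chr2:147004024-147004053, - strand: gggattttaCCACCAGGGGGAcacgccgcg
Left site between the TSSs, chr2:147082535-147082564, - strand: aagcctgcaGCACCAGAGGGCctctccaga
Middle site between the TSSs, chr2:147131230-147131259, - strand: atccatattCCACTGGAGGGCgctaaagca
Right site between the TSSs, chr2:147133662-147133691, - strand: ccaagccgaCCACAAGATGGCagcctttcc

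On chromosome 12, Nkx2-1, its neighbour Nkx2-9 and Pax9, a gene of teeth and pharyngeal pouches, formed a cluster of 181 kb with 1 site between each pair of neighbours. The site between Nkx2-1 and Nkx2-9 is the one upstream of Nkx2-1. The site between Nkx2-9 and Pax9 (chr12:57737596-57738716) had a score of 54.7 and lay 23.3 kb upstream of Nkx2-9 and 54.0 kb upstream of Pax9. It was the only site of the 41 within 100 kb of 3 members. Both sites held the core motif on the - strand. Beyond Pax9 no site followed for 568 kb.

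Sine oculis homeobox genes act in eye, brain, kidney and muscle. All 5 members had a site within 100 kb and 3 within 50 kb, against 60.1% and 38.7% of all genes. Their median distance was 22.7 kb, and for each of them the nearest site lay downstream of the gene. Six3, which is needed for forebrain and eye, and Six2, which maintains nephron progenitors, face each other with 74.6 kb between their TSSs and no other protein-coding gene between. The DNA between them held 2 sites. One, chr17:86032771-86033567, stood 19.8 kb from the Six3 TSS, 1.62 kb past the end of the gene record, and had a score of 76.9. The other, chr17:86064015-86064911, stood 22.7 kb from the Six2 TSS and had a score of 82.0. The best matches in this pair of sites are shown because they pointed away from each other, the left one toward Six3 and the right one toward Six2. The left match had 2 mismatches, and the direction of the pair rests on it. With at most 1 mismatch the left site has no motif and no direction. A match with 2 mismatches was also held by 49.7% of stretches 5 kb from all sites, so the direction is not established.
Left site, chr17:86033158-86033187, - strand, 2 mismatches: tcgccacggCCGCGAGGTGGCagcaaaaac
Right site, chr17:86064476-86064505, + strand, 1 mismatch: tatgtttctCCAGCAGGTGGAgccatctct

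Outside the pair, the next sites were 260 kb beyond Six3 and 375 kb beyond Six2. Six6, a retina and pituitary gene, and Six4, a muscle gene, lie on chromosome 12 with 173 kb between their TSSs and 2 further protein-coding TSSs between. There were 3 sites between them, at 22.6 kb (score 98.8), 36.5 kb (score 154) and 80.9 kb from the Six6 TSS. The last of these had a score of 80.5, held an exact core motif and was the nearest site of Six4, at 91.9 kb. Six4 was the only member with a BirA region within 100 kb, at 27.0 kb, and 1 region was removed for BirA near it. With BirA regions kept, the number of members with a site within 50 kb was 18 in place of 17. Six5, which lies in the most gene-dense surroundings of the 41 with 12 other TSSs within 100 kb, had its nearest site at 83.5 kb. Of the 6 sites within 100 kb of Six2 to Six6, 2 held the core motif with at most 1 mismatch, against 74.5% of all sites.

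The match in the site nearest Six6 and that in the site left of the cluster are shown because they are the same stretch of letters in large part, with 23 of 30 positions alike.
Nearest Six6, chr12:74063927-74063956, - strand, 2 mismatches: cagaagagaACAGAAGAGGGCactggatcc
Left of Six6, chr12:73755923-73755952, - strand, 1 mismatch: ccatggaaaCCAGAAGAGGGCactggattc
The run of 18 letters they share (cagaagagggcactggat) occurred on either strand in 21 of all 8323 sites (0.252%) and in 3 of 16645 equally wide stretches at that distance of 5 kb (0.018%). This search was chosen after the sequences had been seen. The run was taken from 2 of the sites, which are among the 21, and it holds most of the CTCF core match. The core with at most 1 mismatch is itself more frequent in all sites than in those stretches (74.5% against 10.0%). The comparison therefore cannot show an enrichment of the run.

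Irx genes, the Iroquois homeobox genes of heart, limb and neural patterning, stand in 2 clusters of 3, on chromosomes 13 and 8. They were the family farthest from Wapal sites, with a median distance of 262 kb. A site within 100 kb was found for 2 of 6 members, against 60.1% of all genes. Irx1, Irx2 and Irx4, the ventricular gene of the heart, lay in a single stretch of 2203 kb without a site. Among the 8303 stretches between neighbouring sites it ranked 113 by length, and 0.0562% of it was unsequenced in mm9. The median length was 155 kb over all stretches and 366 kb over those holding a protein-coding TSS. Stretches over 1 Mb held 6 of the 41 members and 15.9% of protein-coding TSSs, so the members' share was near the background. The nearest site of Irx1 was 857 kb away and that of Irx2 681 kb away, the longest distances of the 41. Irx4, at the right end of the stretch, had a site at 49.5 kb, chr13:73447455-73448544, with a score of 97.3. The site at the left end, chr13:71243914-71244550, had a score of 62.3.

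Irx3 and Irx5, whose products act together in heart and limb, shared a stretch of 1081 kb with no site, rank 387, and their nearest sites were at 269 and 256 kb. At its left end stood a site in an intron of Fto (chr8:94055650-94056547, score 61.5), the gene next to Irx3. At its right end a site with a score of 99.2 (chr8:95137251-95138052) separated Irx5 from Irx6 and was 60.1 kb upstream of Irx6. The sites at the ends of both stretches are shown, since they bound the longest intervals shared by members.
Left of Irx1, chr13:71244221-71244250, - strand, 2 mismatches: tcgctgaggCCAGCAAAGGGGtctgtgaaa
Right of Irx4, chr13:73448192-73448221, - strand, 0 mismatches: cctgcctgcCCACCAGAGGGCagtagtgca
Left of Irx3, chr8:94056056-94056085, + strand, 1 mismatch: cacagacggCCTGCAGGGGGCactgttgcg
Between Irx5 and Irx6, chr8:95137596-95137625, - strand, 2 mismatches: ttaacacaaCCACTGGGTGTCgctgtgcaa

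**Figure D3:**
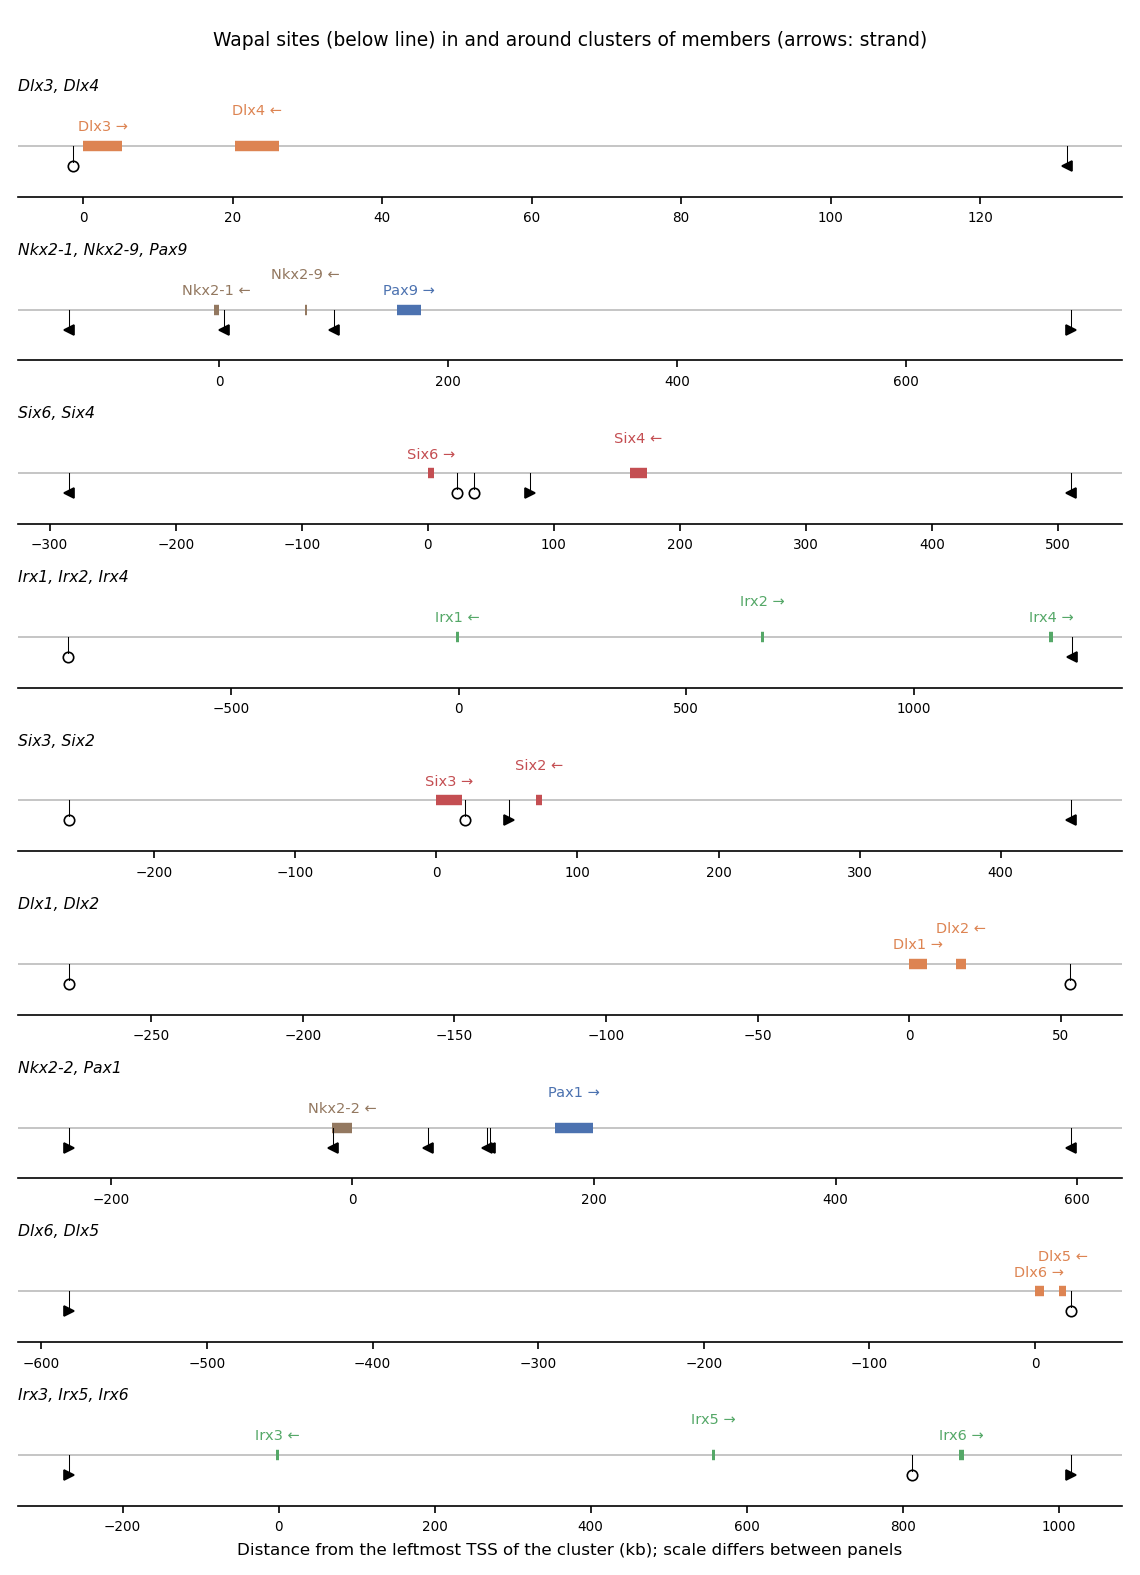
Wapal sites in and around the 9 clusters of members, by distance from the leftmost TSS of each cluster (kb, scale differs between panels). Coloured bars are gene records with an arrow for the strand, and marks under the line are sites: filled triangles point in the direction of the best CTCF core motif (1 mismatch or none), and open circles have no such motif. The 3 Dlx pairs have no site between partners, Six3 and Six2 have 2, Nkx2-2 and Pax1 have 3, and Irx1, Irx2 and Irx4 have none over 1311 kb. Of all adjacent protein-coding pairs as close as the Dlx pairs, with TSSs up to 50 kb apart, 9.48% have a site between them.

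Over all 12 pairs of neighbouring members with TSSs within 1 Mb, 6 had a site between the TSSs, against 24.3% of adjacent protein-coding pairs. The count depends on the spacing, which the members and all genes do not share. The member pairs could also have other protein-coding TSSs between them, which the adjacent pairs could not. There were 2 between Six6 and Six4, 1 between Irx1 and Irx2 and 1 between Irx3 and Irx5. For TSSs up to 50 kb apart, 0 of 3 member pairs (the Dlx pairs) and 9.48% of all pairs had one. For 50 to 250 kb it was 5 of 5 member pairs and 38.5% of all pairs. Beyond 250 kb, where the 4 member pairs were all Irx genes, it was 1 of 4 and 68.6%.

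Pax genes had 7 of 9 members with a site within 100 kb, 2 within 50 kb and 0 within 10 kb, with a median distance of 65.7 kb. Of all genes the shares were 60.1%, 38.7% and 9.13%, so 0 of 9 within 10 kb is near the background. Pax7, which marks muscle satellite cells, was the closest, with sites 24.9 and 43.5 kb upstream that both held an exact core motif. Its relative Pax3, a gene of neural crest and muscle progenitors, had 1 site, 70.2 kb upstream. In the Pax2, Pax5 and Pax8 group, Pax5 (B cell commitment) and Pax2 (kidney and optic nerve) each held 1 site inside an intron, 41.4 and 69.6 kb from the TSS, with scores of 89.7 and 82.6. Pax8, a thyroid gene, had 3 sites within 100 kb, the nearest at 65.7 kb and the highest with a score of 201. From other annotated transcript starts the nearest sites of Pax5 and Pax8 were at 13.7 and 13.2 kb. Pax6, the regulator of eye development, had its nearest site 145 kb upstream, with a score of 164. Pax4, needed for pancreatic beta cells, came after Irx1 and Irx2 in distance, at 387 kb, inside an interval of 1178 kb. Its nearest site (chr6:28786467-28787208, score 60.2) lay in an intron of Snd1, and the interval's other end was a site of score 263 in an intron of Grm8.

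Lhx genes are LIM-homeodomain regulators of pituitary, brain, limb and gonad. Of the 7 members, 6 had a site within 100 kb, 1 within 50 kb and 0 within 10 kb, and each of these 6 had a single site. Of all genes the shares were 60.1%, 38.7% and 9.13%, so 0 of 7 within 10 kb is near the background. Lhx4, a pituitary gene, was the closest at 42.6 kb, followed by its relative Lhx3 at 53.7 kb. Lhx8 (cholinergic neurons) was at 60.3 kb, Lhx5 at 73.3 kb, Lhx2 (eye and forebrain) at 90.4 kb and Lhx6 (cortical interneurons) at 95.4 kb. Lhx9, needed for gonad formation, was at 290 kb from a site in an intron of Nek7 (chr1:140454679-140455458, score 67.0). All 6 sites within 100 kb of Lhx genes held the core motif with at most 1 mismatch, which for 6 sites is near the 74.5% of all sites. The scores of these 6 sites ran from 57.7 to 80.3, all under the median of 81.4 over all sites. None reached 100, a score that 34.6% of all sites reached.

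In all, 41 distinct sites lay within 100 kb of a member, of which 32 were near 1 member, 8 near 2 and 1 near 3. Their median score was 84.3 against 81.4 for all sites, their median width 856 bp against 812 bp, and their median GC content 48.5% against 44.3%. Extragenic DNA held 58.5% of them, against 54.1% of all sites, and 9.76% lay within 2 kb of an annotated TSS of any gene, against 9.90%. The core motif with at most 1 mismatch was found in 31 of the 41 (75.6%, exact 95% binomial interval 59.7 to 87.6%, counting error only), against 74.5% of all sites. In equally wide stretches 5 kb to either side it was found in 13.4% for members and 10.0% for all sites. The 10 sites without it included 3 of 4 near Dlx genes and 4 of 6 near Six2 to Six6, against 25.5% of all sites. In the other families the motif was held by 2 of 3 sites near Irx, 11 of 12 near Pax, 10 of 11 near Nkx and 6 of 6 near Lhx genes. With so few sites, the 6 of 6 is near the 74.5% of all sites. The median score of the 10 sites without the motif was 118. Over all sites those without it had the lower median, 76.0 against 83.5.

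**Figure D4:**
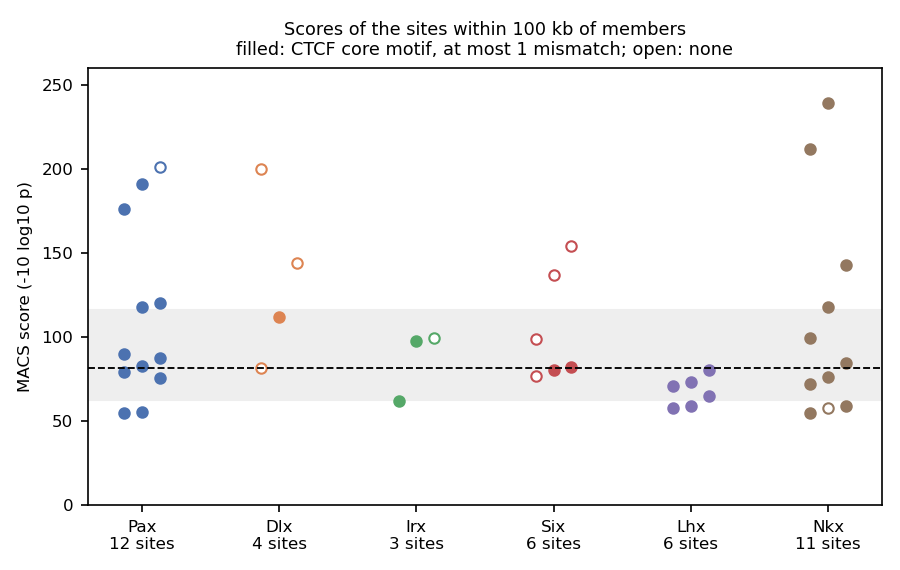
MACS score (vertical axis) of each site within 100 kb of a member, by family; filled points hold the CTCF core motif (1 mismatch or none) and open points do not. The dashed line is the median of all 8323 sites, 81.4, and the grey band runs between their quartiles. All Lhx points lie at 80.3 or lower, and 3 of 4 Dlx points are open, against 25.5% of all sites without the motif.

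Each member was also placed between the nearest sites wholly outside its gene record. The median interval was 307 kb for members and 402 kb for all protein-coding genes. Both flanking sites held a core motif with at most 1 mismatch for 20 members, and the pair of motifs faced each other across the gene for 8 of them (40.0%), against 25.4% of all genes. Those 8 were Six2, Six4, Lhx4, Lhx6, Lhx8, Lhx9, Nkx2-2 and Nkx2-3. The motifs faced outward for 3 members, and both pointed the same way for the other 9. With exact motifs only 6 members could be scored and 2 were convergent (33.3% against 27.6% of all genes). With 2 mismatches 18 of 37 were (48.6% against 25.6%). The members added there each rest on at least 1 match with 2 mismatches, which 49.7% of stretches 5 kb from all sites also held. Dlx3 and Dlx4, Dlx5 and Dlx6, and Irx3 and Irx5 each share 1 interval but count as separate members.

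Other lists of developmental genes gave the following values beside the members' 80.5% within 100 kb and median of 53.7 kb. Of 40 Hox gene records, 42.5% had a site within 10 kb and all had one within 100 kb, with a median distance of 10.8 kb, from 12 distinct sites, of which 33.3% held the core motif. The share within 100 kb was 67.4% for 43 forkhead genes, 57.9% for 19 Sox records and 66.7% for 57 records of other developmental homeobox genes. Their median distances were 56.5, 73.6 and 50.6 kb. The median of the other homeobox genes was close to that of the members, and the quartiles overlapped (26.4 and 124 kb against 23.3 and 90.4 kb). Within 50 kb the shares were 46.5%, 36.8% and 47.4%, against 41.5% of members. The 8 genes of the 6 families outside the list all had a site within 100 kb, and their median distance was 39.2 kb. These lists were described and not tested against each other.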

How the data were processed

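ChIP-seq libraries of 2 FB Wapal clones, 1 BirA control and 1 input were sequenced by the authors, aligned to mm9 with Bowtie for unique hits, and called against input with MACS (version 1.4.2 in the submitters' processing notes). The deposited lists give each region's position and the authors' MACS score, which is not normalized between lists. The rule by which both clones were joined is not given in the sources used here. All regions lay inside the mm9 chromosomes used. Unique alignment leaves repeated DNA unread, and the lists hold no counts.

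Regions of the Wapal list that overlapped the BirA list by 1 bp or more were left out. Distances ran from the 5′ end of a GENCODE M1 gene record to the nearest edge of a site. Starts in the lists were read as counted from 0. Sites were classed by their centre as promoter (within 2 kb of any TSS), exon, intron or extragenic. Neighbouring members had TSSs within 1 Mb. The 12-base CTCF core motif was searched on both strands of mm9, with at most 1 mismatch, and the best match was the one with the fewest mismatches, then nearest the centre. Every member is named; members with a site within 10 kb, those in clusters and the 5 farthest are described with positions, and other genes are named only where they hold such a site. Sequences come from those sites. Members and lists were chosen with earlier results of these data known. Functions were checked on simulated data: 200 of 200 planted distances, 100 of 100 removals and 200 of 200 motifs were recovered. Alternatives covered the score, the BirA rule, merging, the TSS, the distance and the motif. Python 3.11.15, numpy 2.4.6, scipy 1.17.1 and matplotlib 3.10.9 were used.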

Additional observations from a re-analysis of the deposited data

How the results depend on the processing

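Each of the 10 results was recomputed under its alternatives, 70 values in all, of which 58 stayed within 1.5 times the reported value (for the share with a motif, within its 95% interval) and 12 moved. A score of at least 100 moved most. It left 2, 7 and 13 members with a site within 10, 50 and 100 kb, against 3.09%, 15.2% and 27.8% of all genes, and the last of these was 31.7% of members. The median distance became 231 kb (234 kb for all genes), the sites within 100 kb 14, their median score 149, the pairs with a site between them 2 (10.4% of all adjacent pairs), and the median interval 1008 kb (1221 kb for all genes). Exact motifs were held by 34.1% of the sites near members and motifs with 2 mismatches by 95.1%. Convergent members then numbered 2 and 18. Taking any transcript start gave 5 members within 10 kb, Nkx2-2 being added, and 20 within 50 kb, against 12.3% and 42.5% of all genes. No paired analysis was possible because both clones are joined in 1 list, and no replicate could be left out. The depth behind a site is unknown, and a site missing near a member is not shown to be absent.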
